A study of Homo sapiens with 12 samples.

Results

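N-linked glycosylation was followed through 49 genes for the enzymes that build the sugar precursor, move it onto protein in the endoplasmic reticulum (ER) and trim it there and in the Golgi. The members were taken by name from the pathway, and all 49 were found among the 63677 genes of the count table. Of these, 47 passed the filter on low counts and were tested. GMPPB had between 1 and 7 reads in each library, and UGGT2 had 0 reads in all 12, so neither was tested. Whether the counting step left out reads of UGGT2 is not known from the sources used here, and its 0 is given as listed. They were sorted into 8 roles, and the roles give the order of the results.

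The libraries came from 3 established human lines of mantle cell lymphoma (MCL). JEKO1, JVM2 and MAVER1 cells were each left as control (Ctrl), treated with ironomycin (Irono), with ibrutinib (Ibru) or with both (Irono+Ibru). Ironomycin is a compound that holds iron in lysosomes, and ibrutinib inhibits Bruton's tyrosine kinase (BTK), a kinase of B-cell receptor signaling. Treatment lasted 48 h, and the doses were set by line. JEKO1 received 50 nM ironomycin and 0.5 μM ibrutinib. JVM2 received 250 nM and 1.5 μM of the same drugs, and MAVER1 250 nM and 6.25 μM. Each line gave 1 polyA RNA library per treatment, so the line served as the replicate (n = 3 lines), and other differences between lines went with it. The ironomycin dose set JEKO1 apart, the ibrutinib dose differed between all 3 lines, and JVM2 was cultured in less serum than the other lines. The paper describes a lower seeding density of JVM2 for plates of drug combinations, and whether it held for these cultures is not known. Library totals ran from 35448523 to 38630809 reads. The 49 members together took 0.301% to 0.525% of the reads of a library. All 5 B-cell markers read (MS4A1, CD79A, CD79B, PAX5, CD74) were at 97.4 CPM (counts scaled to a library's total) or more in all 12 libraries. CCND1, the cyclin that MCL overexpresses, stood at 216 to 322 CPM in JVM2 and at 2182 or more in the other two lines, SOX11 had 0 reads in JVM2, and CCND2 stood at 243 to 269.9 CPM in JVM2.

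In N-glycosylation a sugar tree is assembled stepwise on the lipid dolichol at the ER membrane, first on the cytosolic face and then in the lumen, from nucleotide sugars and dolichol-linked sugars. The oligosaccharyltransferase moves the finished tree as a block onto asparagines of proteins entering the ER. Glucosidases and mannosidases then trim it, and the trimmed forms are read by lectin chaperones as a record of folding before the protein moves on to the Golgi. B cells depend on this route for the B-cell receptor and other surface glycoproteins.

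Read counts were scaled by the trimmed mean of M values (TMM) and are given as CPM, in each line in the order control, ironomycin, ibrutinib, both drugs. A gene was called when its adjusted p in edgeR's quasi-likelihood F-test was under 0.05, with Benjamini-Hochberg adjustment over all 18674 genes tested. Fitted changes are log2 fold changes ± standard error, with cell line as a term in the model.

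Levels in the control libraries were compared between genes only per kilobase of exon, as RPKM, reads scaled for exon length and for depth, averaged over the 3 control libraries. The oligosaccharyltransferase was the most abundant role by median, at 66.5 RPKM over its 10 members, and ranged from TUSC3 at 1.26 to DAD1, a small subunit, at 129.8 RPKM. GANAB, the catalytic subunit of glucosidase II, reached 119 RPKM and its partner PRKCSH 71.7. The enzymes of lipid-linked assembly in the ER lumen had a median of 2.59 RPKM, although ALG8 reached 25.5, and those of the cytosolic face had a median of 5.01. Lowest among the tested members were ALG11 at 0.486, ALG9 at 0.751 and ALG14 at 0.79 RPKM. ALG11 shares 4100 of its 10335 exon bases with UTP14C on the same strand, and ALG9 shares 1954 of 8013 with another gene model on its strand, so the counts of both are uncertain. MGAT2, at 2.08 RPKM, lies over 2469 of its 2687 exon bases opposite another gene model, and the sources used here do not say whether counting used strand.

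**Figure D1:**
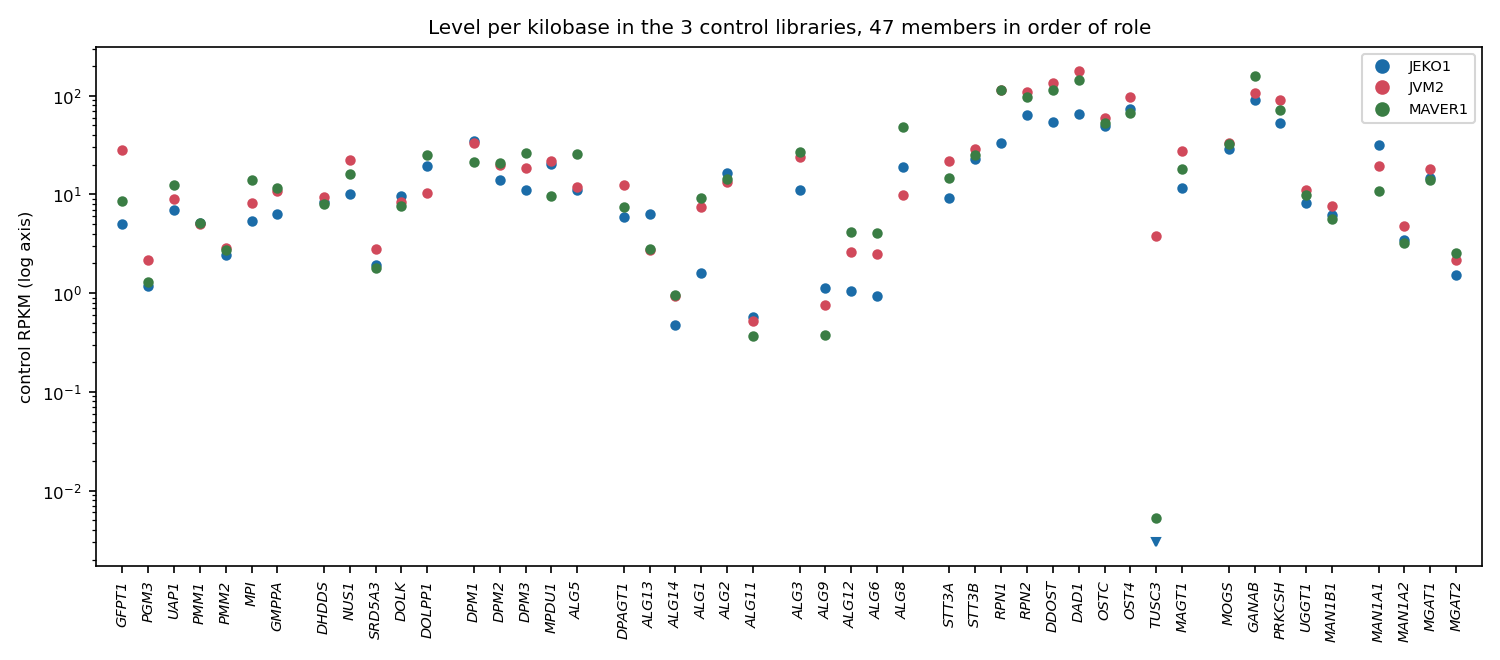
Level of each of the 47 tested members in the 3 control libraries, as RPKM on a log axis, 1 point per cell line, with genes in order of role and a triangle for a value of 0 drawn at the foot of the axis. RPN1, RPN2, DDOST, DAD1 and GANAB lie highest by mean, and TUSC3 lies at or near 0 outside JVM2.

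The lines differed in these genes before any drug. The highest control level was 1.83 times the lowest in the median member, over the 46 members with a level above 0.5 CPM in every control library, and 1.91 times in the median of 12201 genes with such a level. JEKO1 had the lowest control level for 30 of the 47 tested members, and JVM2 the highest for 24, against 33.6% and 37.2% of all 18674 genes. In 17 members all 4 JEKO1 libraries lay below all 8 libraries of the other lines, as they did in 14.8% of all genes. ALG1, the enzyme that adds the first mannose, was at 7.36, 7.96, 7.62 and 7.88 CPM in JEKO1, 33.8, 31.7, 37.1 and 32.8 in JVM2, and 41.7, 29.2, 39.6 and 24.04 in MAVER1. JEKO1 was thus the low line for ALG1 under every treatment, while the other two lines overlapped. ALG1 shares 1012 of its 4553 exon bases with NAGPA-AS1 on the same strand, so its counts are uncertain. ALG6, the first glucosyltransferase of the lumen, was at 5.13 CPM in the JEKO1 control, 13.8 in JVM2 and 22.1 in MAVER1, and the 3 lines did not overlap under any treatment. These differences between lines are described without a test, as each line had 1 library per treatment.

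TUSC3 and MAGT1 are paralogous oxidoreductase subunits of the oligosaccharyltransferase form that holds STT3B. TUSC3 was at 0, 0, 0 and 0.0946 CPM in JEKO1, 19.5, 20.4, 17.7 and 18.5 in JVM2, and 0.0276, 0.0268, 0 and 0.0792 in MAVER1. In JEKO1 only the library with both drugs had reads, and in MAVER1 at most 3 reads in a library. Its fitted ironomycin effects in JEKO1 and MAVER1 rest on those few reads and are not used. MAGT1 was at 56.96, 78.7, 52.9 and 77.3 CPM in JEKO1, 132, 139, 120.2 and 122 in JVM2, and 87.5, 119, 89.4 and 126 in MAVER1, and was present in every library.

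With both drugs against control, the hexosamine enzymes PGM3 and GFPT1 rose most, and the direction was mixed along the rest of the pathway. Of the 47 members tested, 11 were called higher and 4 lower, against 14.2% of all 18674 genes called higher and 14.0% called lower. The same shares of all genes stand beside the counts given by role below. The median over the members was 0.09 on the log2 scale, against 0.05 over all genes. The members called higher were PGM3, GFPT1, ALG2, MAN1B1, STT3A, GMPPA, ALG9, MAN1A2, UAP1, MOGS and UGGT1; ALG8, ALG14, MPDU1 and MPI were called lower. In these bulk libraries a change in the share of cells of a type and a change of RNA per cell cannot be told apart. The number of calls depended on the lines in the fit, and a fit without a line also has fewer libraries to estimate the spread. Without JEKO1 and without MAVER1 0 members were called in each case, and 19 without JVM2, where ALG14 was not among them. A fit on the control and combination libraries alone called 0. The shares of all genes called in these fits were not counted. Scaling by library totals in place of TMM moved the median of all genes up by 0.13 and gave 18 members higher and 3 lower.

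**Figure D2:**
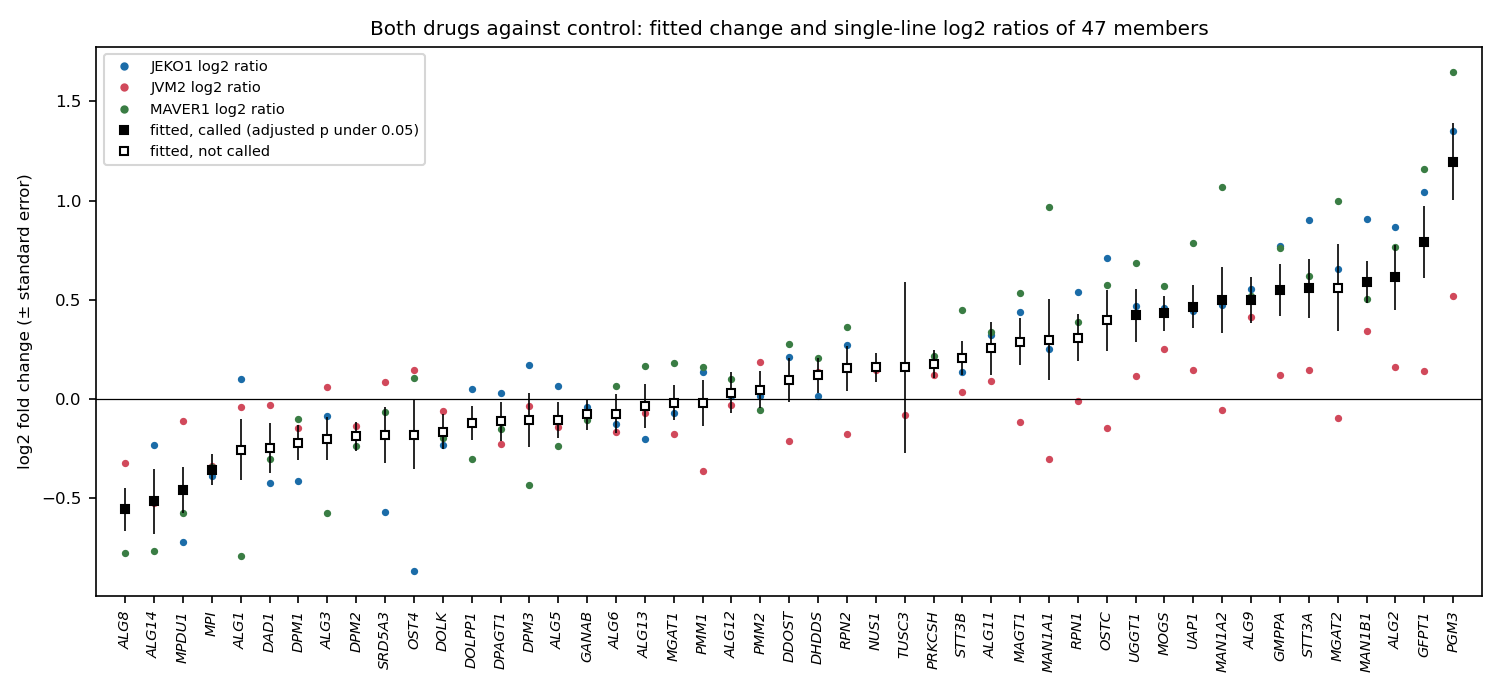
Log2 fold change with both drugs against control for the 47 tested members, ordered by size. Squares with bars are the fitted change ± standard error over 3 lines, filled where called, and dots are the log2 ratios of single lines (TUSC3 for JVM2 alone). PGM3 lies highest at 1.19 and ALG8 lowest at -0.56, and for PGM3, GFPT1, STT3A and ALG2 the JVM2 dot is the lowest of the 3.

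Of the precursor enzymes, 3 belong to the route to UDP-N-acetylglucosamine, the nucleotide sugar that starts the tree. GFPT1, the rate-limiting enzyme of the hexosamine pathway, was at 44.5, 84.02, 40.5 and 92.02 CPM in JEKO1, 252, 306, 237 and 278 in JVM2, and 76.8, 143, 79.5 and 171 in MAVER1. PGM3, the mutase of the pathway, was at 8.67, 18.3, 8.27 and 22.2 CPM in JEKO1, 15.96, 25.9, 16.8 and 22.8 in JVM2, and 9.40, 21.3, 10.2 and 29.6 in MAVER1. UAP1, which forms the nucleotide sugar, was at 23.9, 35.1, 20.99 and 32.4 CPM in JEKO1, 30.9, 43.2, 26.2 and 34.2 in JVM2, and 43.1, 70.5, 41.9 and 74.2 in MAVER1. In every line, for all 3 genes, both libraries with ironomycin lay above both without it, while for GFPT1 the JVM2 libraries stayed above those of the other lines throughout. With both drugs PGM3 rose by 1.19 ± 0.19, edgeR adjusted p = 0.00373, or 2.29-fold. GFPT1 rose by 0.79 ± 0.18, edgeR adjusted p = 0.0107. UAP1 rose by 0.46 ± 0.11, edgeR adjusted p = 0.0115. PGM3 shares 1087 of its 7335 exon bases with DOP1A on the opposite strand. The route also needs GNPNAT1, which is not a member and did not share this rise. GNPNAT1 was at 6.53, 7.18, 7.34 and 7.12 CPM in JEKO1, 27.1, 30.3, 31.9 and 28.2 in JVM2, and 18.5, 17.02, 20.1 and 16.3 in MAVER1. Its MAVER1 libraries with ironomycin lay below those without it, and in JEKO1 and JVM2 they overlapped.

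The other precursor enzymes feed mannose into the pathway. GMPPA, the regulatory partner of the GDP-mannose synthesis enzyme, was at 33.7, 58.2, 33.2 and 57.6 CPM in JEKO1, 57.3, 65.9, 52.4 and 62.2 in JVM2, and 61.5, 97.1, 60.2 and 104 in MAVER1. It rose with both drugs by 0.55 ± 0.13, edgeR adjusted p = 0.0126. MPI, the isomerase that draws mannose-6-phosphate from fructose-6-phosphate, was at 49.1, 46.95, 46.9 and 37.4 CPM in JEKO1, 75.2, 68.6, 62.5 and 59.4 in JVM2, and 126, 110.1, 119 and 99.1 in MAVER1. MPI was called lower, at -0.36 ± 0.08, edgeR adjusted p = 0.00881, and its single-line log2 ratio was below 0 in all 3 lines. It shares 2233 of its 9090 exon bases with FAM219B on the opposite strand. PMM1 and PMM2 are the phosphomannomutases. PMM1 was at 25.98, 24.7, 25.97 and 28.5 CPM in JEKO1, 25.4, 24.8, 19.7 and 19.7 in JVM2, and 26.2, 28.8, 25.8 and 29.3 in MAVER1, and PMM2 was at 18.5, 21.1, 16.6 and 18.7 CPM in JEKO1, 21.9, 27.6, 23.8 and 24.9 in JVM2, and 21.1, 20.8, 19.4 and 20.3 in MAVER1. Neither was called with both drugs, at -0.02 ± 0.12 for PMM1 and 0.05 ± 0.09 for PMM2. GMPPB, the catalytic enzyme of GDP-mannose synthesis, had too few reads to be tested. It shares 2852 of its 6742 exon bases with AMIGO3 on the same strand, so its low count is uncertain.

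The dolichol enzymes had 0 of 5 members called with both drugs, and the fitted changes ran from -0.18 to 0.16. NUS1, a subunit of the prenyltransferase that makes the dolichol chain, was at 47.2, 53.98, 43.8 and 52.8 CPM in JEKO1, 105, 122, 111 and 117 in JVM2, and 75.4, 81.7, 73.8 and 84.4 in MAVER1. Its change with both drugs was 0.16 ± 0.07, edgeR adjusted p = 0.125, and 4 pseudogene symbols carry its name. SRD5A3, which reduces polyprenol to dolichol, was at 8.57, 6.53, 7.37 and 5.75 CPM in JEKO1, 12.4, 12.7, 12.7 and 13.1 in JVM2, and 7.99, 8.89, 7.70 and 7.63 in MAVER1. Levels of SRD5A3 with ironomycin were below those without it in JEKO1 alone. Its partner genes DHDDS, DOLK and DOLPP1 changed by 0.12, -0.17 and -0.12.

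All 5 genes of the dolichol-phosphate sugars had a fitted change below 0 with both drugs, from -0.46 to -0.11, and 1 of them was called. MPDU1, which is needed for the use of dolichol-phosphate mannose and glucose, was at 66.5, 57.95, 61.3 and 40.2 CPM in JEKO1, 71.1, 60.8, 73.99 and 65.7 in JVM2, and 31.7, 24.7, 29.8 and 21.3 in MAVER1. It was called lower, at -0.46 ± 0.12, edgeR adjusted p = 0.0159, and was lower with ironomycin than without in every line. ALG5, which makes dolichol-phosphate glucose, was at 24.2, 27.1, 23.4 and 25.3 CPM in JEKO1, 26.3, 27.7, 25.1 and 23.8 in JVM2, and 56.7, 50.4, 54.7 and 48.1 in MAVER1. MAVER1 was the high line for ALG5, and the fitted change was -0.11 ± 0.09, edgeR adjusted p = 0.41. DPM1, DPM2 and DPM3, the subunits of dolichol-phosphate mannose synthase, changed by -0.22, -0.19 and -0.11, and none of the 3 was called.

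Among the 6 enzymes of the cytosolic face, ALG2 was called higher and ALG14 lower. ALG2, a mannosyltransferase, was at 48.6, 71.4, 39.8 and 88.5 CPM in JEKO1, 39.5, 42.7, 41.1 and 44.2 in JVM2, and 42.4, 62.3, 41.02 and 72.1 in MAVER1. In JEKO1 and MAVER1 the libraries with ironomycin stood well above the rest, and in JVM2 the 4 values lay close together. ALG2 rose by 0.61 ± 0.16, edgeR adjusted p = 0.0198. ALG14, the membrane anchor of the enzyme for the second N-acetylglucosamine, was at 4.55, 3.66, 3.57 and 3.86 CPM in JEKO1, 9.08, 7.91, 9.37 and 6.28 in JVM2, and 9.20, 5.42, 7.52 and 5.38 in MAVER1. The fitted change of ALG14 was -0.52 ± 0.16, edgeR adjusted p = 0.0372, and the JEKO1 libraries with and without ironomycin overlapped. ALG13, the catalytic partner of ALG14, changed by -0.04, DPAGT1, which starts the tree and is the target of tunicamycin, by -0.11, ALG11 by 0.25 and ALG1 by -0.26, and none of these was called.

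In the ER lumen ALG9, a mannosyltransferase, was called higher and ALG8, the second glucosyltransferase, lower. ALG9 was at 8.94, 9.83, 8.72 and 13.2 CPM in JEKO1, 6.08, 7.17, 6.38 and 8.11 in JVM2, and 3.04, 3.73, 3.26 and 4.38 in MAVER1. It rose by 0.50 ± 0.12, edgeR adjusted p = 0.0112. ALG8 was at 64.7, 58.7, 61.99 and 43.7 CPM in JEKO1, 34.4, 32.2, 33.9 and 27.4 in JVM2, and 165, 118, 170.2 and 96.1 in MAVER1. The lowest ALG8 value of each line was the library with both drugs, and the fitted change was -0.56 ± 0.11, edgeR adjusted p = 0.00633. ALG3, ALG6 and ALG12 changed by -0.20, -0.07 and 0.03 and were not called.

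Of the 10 oligosaccharyltransferase genes, STT3A alone was called with both drugs. A fitted change above 0 was found in 8, TUSC3 with its few reads among them, and the median over all 10 was 0.18. STT3A, the catalytic subunit that works on chains as they enter the ER, was at 67.5, 125, 60.03 and 126 CPM in JEKO1, 163, 188, 149 and 179.99 in JVM2, and 109, 159.97, 111 and 167 in MAVER1. STT3B, its paralog that acts after translation, was at 114, 131, 111 and 125 CPM in JEKO1, 145, 155, 145 and 148 in JVM2, and 127, 156, 137 and 173 in MAVER1. Within each line both genes were higher with ironomycin than without, and the span was wider for STT3A. With both drugs the changes were 0.56 ± 0.15, edgeR adjusted p = 0.0202 for STT3A and 0.21 ± 0.09, edgeR adjusted p = 0.0956 for STT3B. The difference between the paralogs was not tested.

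RPN1, which binds nascent substrates, was at 133, 195, 123 and 193 CPM in JEKO1, 459, 488, 436 and 457 in JVM2, and 451, 529, 439.9 and 589.6 in MAVER1. OSTC, a subunit of the STT3A form, was at 80.5, 85.9, 78.3 and 132 CPM in JEKO1, 95.2, 107, 80.8 and 86.1 in JVM2, and 84.6, 119, 84.4 and 126 in MAVER1. DAD1 was at 52.7, 59.7, 46.6 and 39.3 CPM in JEKO1, 145, 166, 128 and 142 in JVM2, and 117, 98.6, 118 and 94.6 in MAVER1. RPN1 was at most 195 CPM in JEKO1 and at least 436 in the other lines, and for OSTC the JEKO1 library with both drugs stood apart from the other JEKO1 libraries. The changes with both drugs were 0.31 ± 0.12, edgeR adjusted p = 0.0769 for RPN1 and 0.40 ± 0.15, edgeR adjusted p = 0.0782 for OSTC, and 7 pseudogene symbols carry the name of OSTC. The remaining subunits changed by -0.25 (DAD1), 0.15 (RPN2), 0.09 (DDOST), -0.18 (OST4) and 0.29 (MAGT1), without a call.

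ER trimming had 3 of 5 tested members called higher with both drugs and 0 called lower, against 14.2% and 14.0% of all genes. MAN1B1, the ER mannosidase that marks misfolded glycoproteins for degradation, was at 52.1, 73.8, 51.7 and 97.7 CPM in JEKO1, 62.8, 77.1, 61.1 and 79.6 in JVM2, and 47.3, 54.4, 43.3 and 67.05 in MAVER1. UGGT1, the folding sensor that adds glucose back, was at 93.5, 128, 78.6 and 129 CPM in JEKO1, 124, 126, 123 and 135 in JVM2, and 111, 175, 118 and 178 in MAVER1. MAN1B1 rose by 0.59 ± 0.11, edgeR adjusted p = 0.00489, and UGGT1 by 0.42 ± 0.13, edgeR adjusted p = 0.0378. For MAN1B1 the ironomycin libraries were the higher ones in every line, and for UGGT1 the 4 JVM2 values lay within 123 to 135 CPM. MOGS, glucosidase I, which removes the outer glucose, rose by 0.43 ± 0.09, edgeR adjusted p = 0.00684. GANAB was at 459, 497, 446 and 445 CPM in JEKO1, 536, 529, 512 and 505 in JVM2, and 794, 758, 779.7 and 739 in MAVER1. The GANAB values of a line differed little between treatments, at -0.08 ± 0.08 with both drugs, and PRKCSH changed by 0.17 ± 0.07, edgeR adjusted p = 0.087.

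In the Golgi, MAN1A2 was called higher and the other 3 members were not called. The mannosidases MAN1A1 and MAN1A2 both remove mannose. MAN1A1 was at 158, 234, 148 and 187 CPM in JEKO1, 97.4, 97.5, 71.8 and 78.8 in JVM2, and 53.8, 116, 49.3 and 105 in MAVER1. MAN1A2 was at 33.2, 44.01, 32.8 and 46.1 CPM in JEKO1, 45.8, 44.5, 41.7 and 44.1 in JVM2, and 31.3, 50.6, 35.8 and 65.7 in MAVER1. Both were higher with ironomycin in JEKO1 and MAVER1, whereas in JVM2 MAN1A1 was lower in the 2 libraries with ibrutinib. The changes with both drugs were 0.30 ± 0.20, edgeR adjusted p = 0.296 for MAN1A1 and 0.50 ± 0.17, edgeR adjusted p = 0.0466 for MAN1A2. MGAT1, which opens the way to complex glycans, was at 171, 177, 159 and 162 CPM in JEKO1, 211, 195, 196 and 186 in JVM2, and 163, 159, 151 and 185 in MAVER1. MGAT2, which adds the next branch, was at 4.12, 5.76, 3.29 and 6.51 CPM in JEKO1, 5.82, 6.67, 6.41 and 5.44 in JVM2, and 6.83, 9.40, 7.004 and 13.7 in MAVER1. Neither was called, at -0.02 ± 0.09, edgeR adjusted p = 0.888 for MGAT1 and 0.56 ± 0.22, edgeR adjusted p = 0.0805 for MGAT2.

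**Figure D3:**
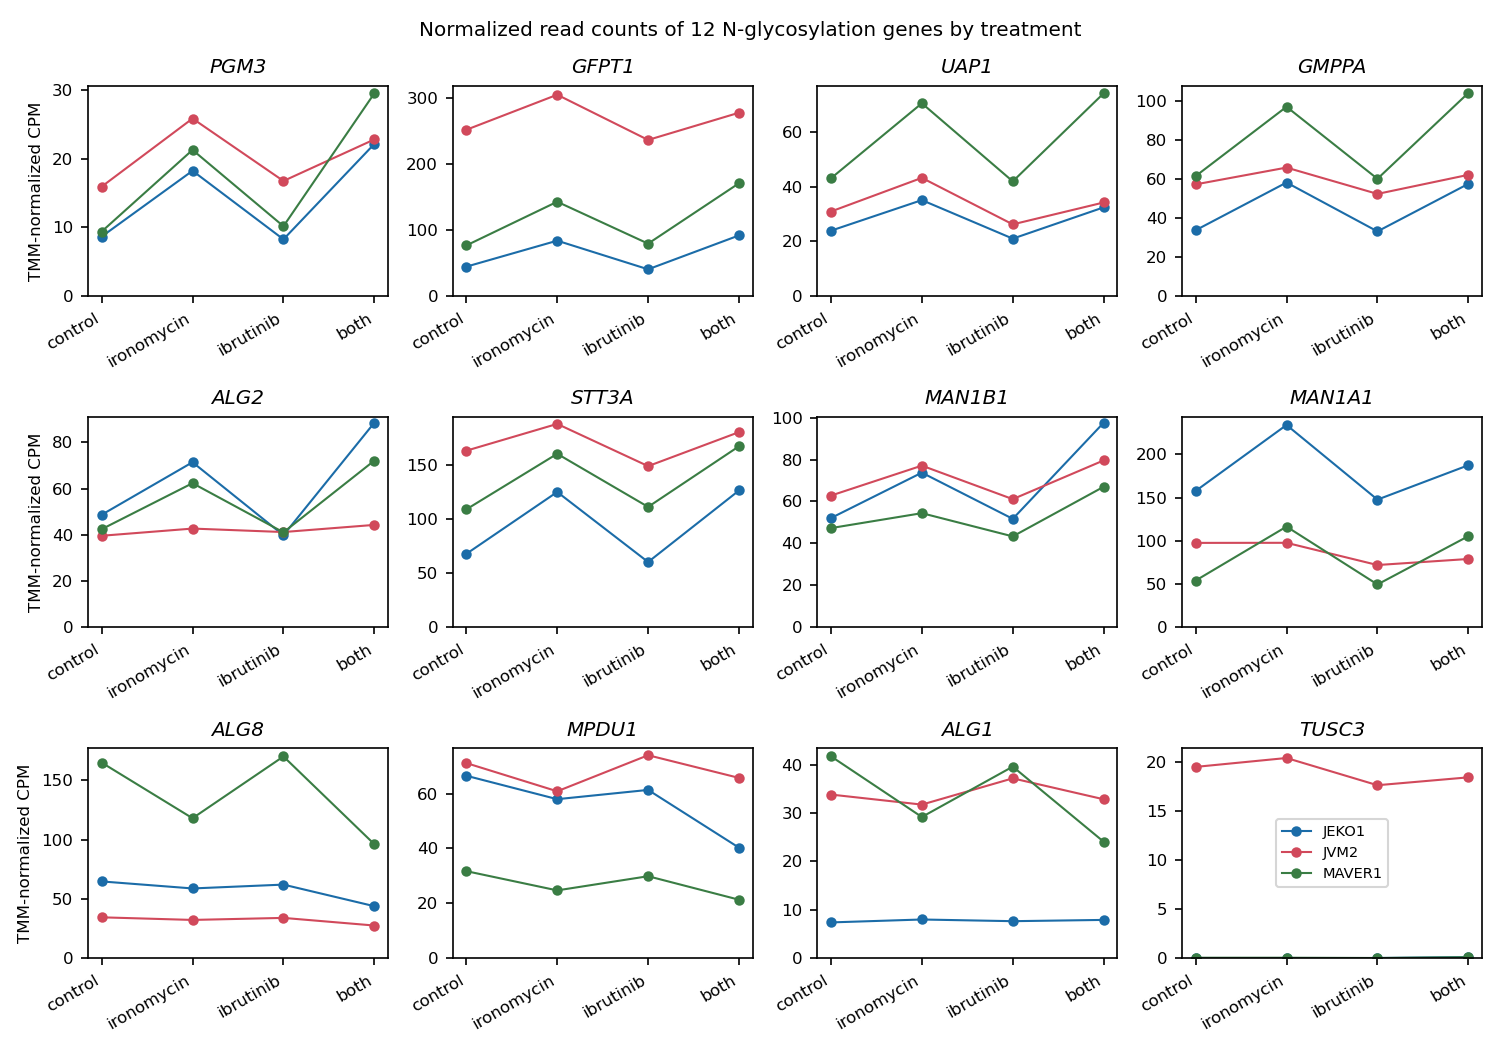
TMM-normalized CPM of 12 members in each library, by treatment, with 1 line per cell line and each axis from 0. PGM3, GFPT1, UAP1 and STT3A are higher with ironomycin than without in all 3 cell lines, ALG8 and MPDU1 are lower, and TUSC3 lies at or near 0 in JEKO1 and MAVER1.

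Promoter windows from RefSeq (GRCh38.p14, 250 bases before to 50 after the start) were searched on both strands for 4 motifs of ER and amino acid stress. Windows were present for 44 of the 49 members, 65 in all, and for 35116 windows over all genes; STT3B, RPN1, TUSC3, MOGS and MAN1A2 had none. The UPRE letters TGACGTG were in the windows of 3 members, UAP1, DHDDS and MGAT1, or 6.15% of member windows against 1.97% of all. ERSE, which is CCAAT and CCACG with 9 bases between, was in that of ALG12 (1.54% of member windows, 0.0769% of all). ERSE-II, ATTGG and CCACG with 1 base between, was in 0% of member windows and 0.0541% of all, and CARE, TGATG and AA with 1 base between, in 0% and 3.62%. No member held 2 of the motif kinds. The stretches around the matches are shown to set them beside the measured changes, with the motif in capitals, each read on the strand of its gene.
UAP1: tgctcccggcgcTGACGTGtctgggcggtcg
DHDDS: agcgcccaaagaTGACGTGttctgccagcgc
MGAT1: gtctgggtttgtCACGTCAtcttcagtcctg
ALG12: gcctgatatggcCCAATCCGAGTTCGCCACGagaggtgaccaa
All 4 stretches lie before the annotated start, at chr1:162561536-162561566 (plus strand) for UAP1, chr1:26432284-26432314 (plus) for DHDDS, chr5:180815815-180815845 (minus) for MGAT1 and chr22:49918542-49918584 (minus) for ALG12. The capitals end 168 bases before the start in UAP1, 19 in DHDDS, 211 in MGAT1 and 116 in ALG12. The same UAP1 site lies 17 to 23 bases after another annotated start of the gene, so it counts in 2 windows, and DHDDS held a further UPRE match, not shown, on the opposite strand that began 6 bases before the start and ran up to it. Of these members UAP1 alone was called with both drugs, at 0.46, beside 0.12 for DHDDS, -0.02 for MGAT1 and 0.03 for ALG12. Of the 15 members called with both drugs, 13 had a window and 1 of them held one of these motifs.

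Ironomycin alone against control gave 1 call, UAP1, at 0.58 ± 0.11, edgeR adjusted p = 0.0483, against 0.412% of all genes called higher and 0.171% lower. The direction of UAP1 was the same in all 3 lines, but the call was lost without JEKO1 and without MAVER1, and 9 members were called without JVM2. DESeq2 called 10 members, all higher, but the shares of all genes called by DESeq2 or without JVM2 were not counted. PGM3 missed the threshold at 0.97 ± 0.19, edgeR adjusted p = 0.0543, GMPPA at 0.55 ± 0.13, edgeR adjusted p = 0.0713 and GFPT1 at 0.69 ± 0.18, edgeR adjusted p = 0.0811. Over the 47 members 31 had a change above 0, with a median of 0.15 against 0.03 over all genes, and 17 had an unadjusted p under 0.05, as did 22.5% of all genes. By role the median ran from -0.08 in the dolichol-phosphate sugars to 0.55 in the precursors.

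Ibrutinib alone gave 0 calls among the members and 0% among all genes by edgeR, and 0 members by DESeq2. No member reached an unadjusted p under 0.05 in edgeR, while 680 of all genes (3.64%) did. Of the 47 members, 38 had a fitted change below 0, with a median of -0.06 against -0.00 over all genes. The lowest value was -0.24 ± 0.20 for MAN1A1, which was at 97.4 CPM in the JVM2 control and 71.8 with ibrutinib, and UAP1 was at -0.16 ± 0.11.

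Adding ibrutinib to ironomycin likewise gave 0 calls among the members by edgeR and 0% among all genes, with 6 members and 10.5% of all genes at an unadjusted p under 0.05. The widest fitted changes were -0.32 ± 0.11 for ALG8, -0.30 ± 0.13 for DAD1 and 0.28 ± 0.11 for ALG9. The interaction, by which the combined change departs from the 2 single changes added up, had 0 members called by edgeR, 0% of all genes, and 0 members and 1.97% of all genes at an unadjusted p under 0.05. DESeq2 called 0 members in both comparisons. Adding ironomycin to ibrutinib gave 14 members called higher and 2 lower, against 11.8% and 11.5% of all genes, with a median of 0.18 against 0.05. This comparison has its combination libraries in common with the one against control. PGM3 stood at 1.15 ± 0.19 here beside 1.19 ± 0.19 there, GFPT1 at 0.85 ± 0.18 beside 0.79 ± 0.18, STT3A at 0.64 ± 0.15 beside 0.56 ± 0.15 and ALG8 at -0.55 ± 0.11 beside -0.56 ± 0.11. OSTC, RPN1, MAGT1 and PRKCSH were called in this comparison and not in that against control. Without JEKO1 and without MAVER1 the count was 0, and without JVM2 it was 21.

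The ironomycin effect within a line was estimated over its 2 libraries with and 2 without the drug, so that ibrutinib was balanced. JEKO1 had 19 members called higher and 5 lower (17.0% and 16.2% of all genes), MAVER1 had 19 and 6 (16.6% and 16.0%), and JVM2 had 2 and 0 (1.92% and 1.35%). The median over the members was 0.19 in JEKO1, 0.22 in MAVER1 and 0.05 in JVM2, against 0.03, 0.02 and 0.00 over all genes. With library totals in place of TMM, JEKO1 gave 25 higher and 1 lower, and the median of all genes moved up there by 0.14. In JEKO1 and MAVER1 17 members were called higher in both and 2, MPDU1 and ALG8, lower in both, and 0 were called in opposite directions, against 9.17%, 9.93% and 0.444% of all genes. The 2 members called in JVM2 were PGM3, at 0.58 ± 0.14, edgeR adjusted p = 0.0492, and UAP1, at 0.44 ± 0.10, edgeR adjusted p = 0.0479; the JVM2 count was 0 without MAVER1 and 0 with DESeq2's size factors.

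Each line's spread here comes from the fit over all lines, since each line had 1 library per treatment. Changes called in JEKO1 and not in MAVER1 included NUS1 at 0.23 ± 0.08, SRD5A3 at -0.38 ± 0.13, DPM1 at -0.29 ± 0.08 and OST4 at -0.49 ± 0.13. Changes called in MAVER1 and not in JEKO1 included ALG1 at -0.62 ± 0.10, ALG14 at -0.62 ± 0.16, ALG3 at -0.37 ± 0.09 and DOLPP1 at -0.24 ± 0.08. Of these 8 genes the difference between lines passed its own test for ALG1 alone.

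**Figure D4:**
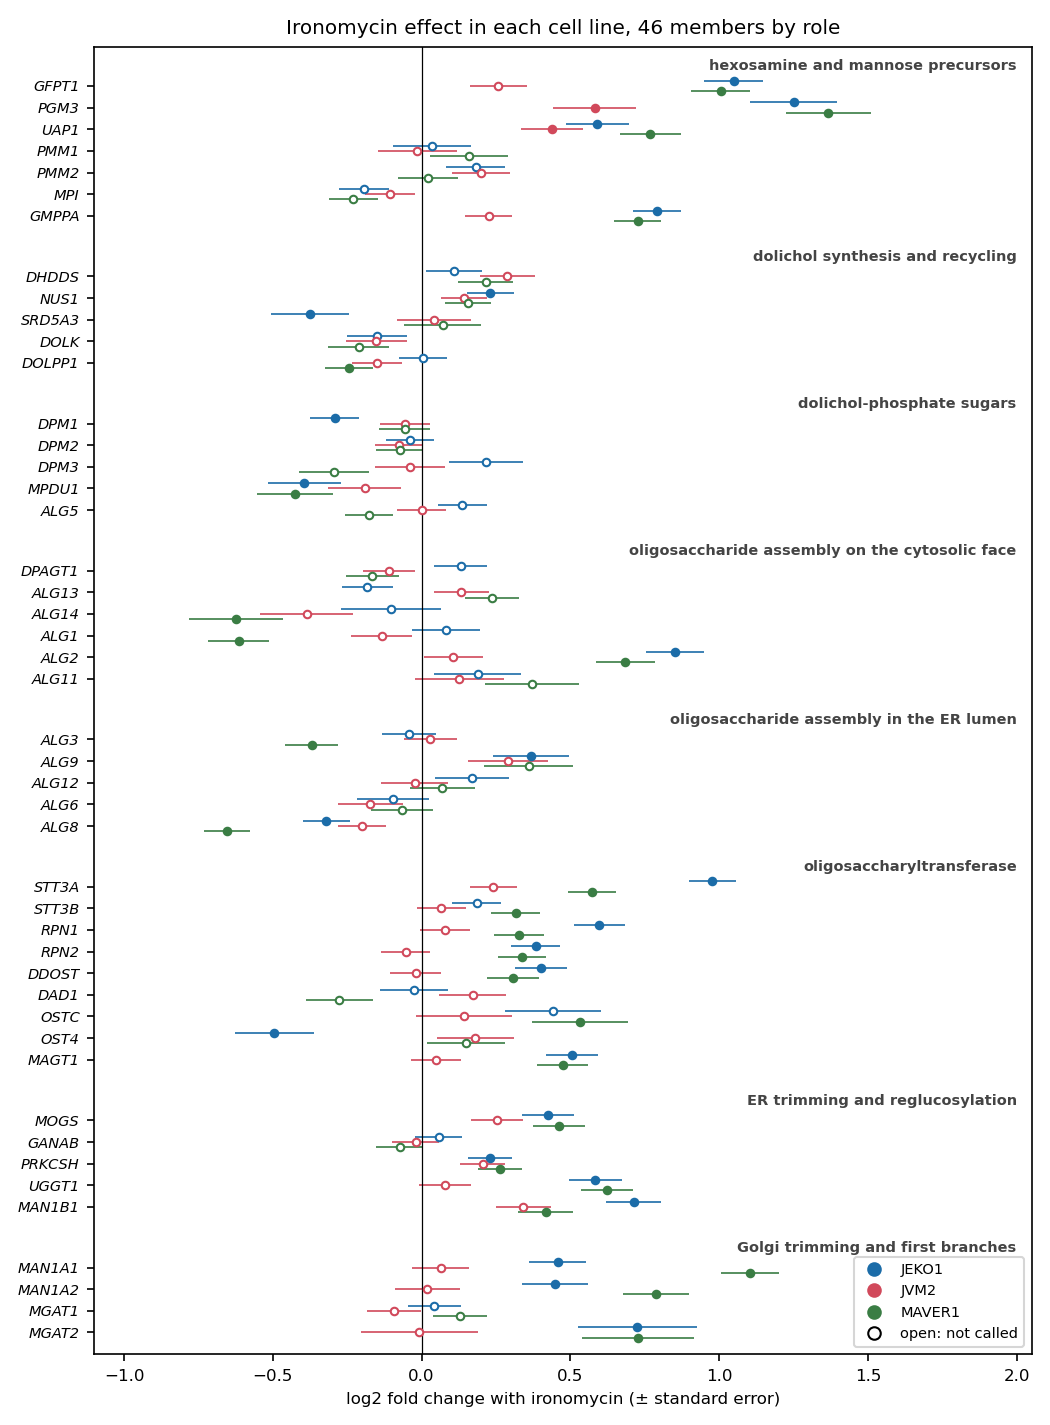
Fitted ironomycin effect (log2 fold change ± standard error) in JEKO1, JVM2 and MAVER1 for 46 members, TUSC3 left out, grouped by role, with filled points where called. The JVM2 points of GFPT1, STT3A, ALG2, UGGT1, MAN1A1 and MAN1A2 lie nearest to 0, and ALG1 is called lower in MAVER1 alone.

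Markers of other cell types were read beside these values. The summed level of 3 T-cell markers was at most 2.49 CPM and that of 3 myeloid markers at most 5.07 CPM in any library. That of 3 epithelial and stromal markers (EPCAM, KRT18, COL1A1) was at most 4.23 CPM in JEKO1, 12.6 in JVM2 and 55.6 in MAVER1, where it was 32.8 in the control, and 1 of them, EPCAM, was called higher with both drugs and with ironomycin in JEKO1 and MAVER1. Of the 4 plasma cell markers (SDC1, PRDM1, TNFRSF17, MZB1), 3 were called higher with ironomycin in JEKO1, 4 in MAVER1 and 0 in JVM2, where 1 was called lower. Their summed level ran from 220.5 to 497 CPM over the 3 control libraries and from 365 to 759 with both drugs, and none of the 4 was at 0 in any library. Of the 5 B-cell markers, 1 was called lower with both drugs, 2 with both drugs against ibrutinib, 3 with ironomycin in JEKO1, 2 in MAVER1 and 0 in JVM2, and 0 were called higher in any of these. Their summed level was 4823 CPM in the JEKO1 control and 3612 with both drugs, 7264 and 7347 in JVM2, and 6348 and 4985 in MAVER1. The part of these markers in the results was not tested.

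A direct test of whether the ironomycin effect differed between the lines called 10 members, against 9.38% of all genes. The 10 were GFPT1, GMPPA, ALG1, ALG2, ALG8, STT3A, RPN1, UGGT1, MAN1A1 and MAN1A2. GFPT1 changed by 1.05 ± 0.10 in JEKO1, 0.26 ± 0.10 in JVM2 and 1.005 ± 0.10 in MAVER1 (edgeR adjusted p of the difference = 0.008996). STT3A was highest in JEKO1, with 0.98 ± 0.08 there, 0.24 ± 0.08 in JVM2 and 0.57 ± 0.08 in MAVER1 (edgeR adjusted p = 0.00824). MAN1A1 was highest in MAVER1, with 1.10 ± 0.10 there, 0.06 ± 0.10 in JVM2 and 0.46 ± 0.09 in JEKO1 (edgeR adjusted p = 0.00359). The JVM2 effect was the smallest in size of the 3 lines for 9 of the 10. The exception was ALG1, with 0.08 ± 0.12 in JEKO1, -0.13 ± 0.10 in JVM2 and -0.62 ± 0.10 in MAVER1 (edgeR adjusted p = 0.0335). How often JVM2 had the smallest effect among all genes called in this test was not counted. The ironomycin effect was called in 610 of all genes in JVM2, against 6211 in JEKO1 and 6104 in MAVER1, so a small JVM2 effect was not particular to these members. Leaving out JEKO1 gave 9 such members, and leaving out JVM2 or MAVER1 gave 2 each. The difference of the ibrutinib effect between the lines gave 0 members and 0% of all genes by edgeR, with 0 members and 466 genes (2.50%) at an unadjusted p under 0.05.

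Other genes near the pathway were taken from lists that are not members, and the largest change each way is given for each list with both drugs against control. In that comparison 14.2% of all 18674 genes were called higher and 14.0% lower. Of 8 other early N-glycan genes, 3 were called higher and 0 lower, with a median of 0.27. GFPT2, the paralog of GFPT1, which had 7 to 26 reads in JEKO1 and JVM2 libraries, rose by 1.38 ± 0.38, edgeR adjusted p = 0.0235, and NGLY1, which takes N-glycans off misfolded proteins, was at -0.01 ± 0.10 without a call. Of 13 genes of the lectin folding cycle and ER mannosidases, 7 were called higher and 0 lower, with a median of 0.45. LMAN1, a cargo receptor from the ER to the Golgi, rose by 0.87 ± 0.16, edgeR adjusted p = 0.00521, and LMAN2, a lectin of the secretory route, was at -0.18 ± 0.11 without a call. Of 18 late Golgi genes, 3 were called higher and 2 lower, with a median of 0.00. MAN1C1, a further Golgi mannosidase, rose by 1.97 ± 0.36, edgeR adjusted p = 0.00496, beside 0.50 ± 0.17 for MAN1A2, and ST3GAL6, a sialyltransferase, was at -1.21 ± 0.43, edgeR adjusted p = 0.0573. ST3GAL6 had 0 to 4 reads in every JVM2 and MAVER1 library, so that this value rests on JEKO1.

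GPI anchor synthesis also draws on dolichol-phosphate mannose. Of its 18 tested genes 1 was called higher and 2 lower, against 14.2% and 14.0% of all genes, with a median of 0.02. PIGQ rose by 0.48 ± 0.07, edgeR adjusted p = 0.00341, and PIGU was called lower, at -0.40 ± 0.09. Of 7 regulators of the unfolded protein response (UPR), 5 were called higher and 0 lower, with a median of 0.67. ERN1, the ER stress sensor that splices XBP1 mRNA, rose by 2.42 ± 0.47, edgeR adjusted p = 0.00581, and ATF6, another sensor, was at 0.15 ± 0.08 without a call. XBP1 itself, chosen after its values were seen, changed with ironomycin by 1.53 ± 0.10 in JEKO1, -0.19 ± 0.10 in JVM2 and 0.20 ± 0.10 in MAVER1, and was called in JEKO1 alone. KRTCAP2, a further subunit of the STT3A form of the transferase and likewise chosen after its values were seen, rose with both drugs by 0.85 ± 0.19, edgeR adjusted p = 0.00914.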

How the data were processed

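RNA-seq of polyA RNA was made in 3 MCL cell lines under 4 treatments, 12 libraries in all. The authors deposited raw read counts per Ensembl gene, with no normalization. The submitters' processing notes list GRCh37, STAR and DESeq2 without versions or roles; the counter is not given in the sources used here. The table held 63677 genes, of which 52181 had a symbol. Counts were scaled by TMM, filtered by filterByExpr by treatment and tested with edgeR 4.0.16 (limma 3.58.1, R 4.3.3; quasi-likelihood F-test, Benjamini-Hochberg over the 18674 genes tested) on all 12 libraries, with treatment and cell line as terms. A further design had an ironomycin or ibrutinib effect per line, averaged over the other drug. Calls were made at an adjusted p under 0.05 with no minimum fold. DESeq2 1.42.0 was an alternative. In the main fit p-values measure how far the treatment changes differed between lines, pooled over treatments. In the design with a drug effect per line they measure the spread left after that effect.

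The replicate block is the line, which the labels give for every library. Deviations from treatment means correlated at 0.926 to 0.976 within lines (18 pairs) and at -0.705 to -0.127 between lines (48 pairs). Each treatment mean was taken over 1 library per line, so the deviations of the lines sum to 0. The negative values between lines come with that centring and are no support for the block. Single-line log2 ratios used a prior count of 2. RPKM used exon lengths of GENCODE (GRCh38), a different build from that of the counts, so no coordinates are given with counts; exon overlaps come from the same annotation. Promoters and their coordinates came from RefSeq. The tests were checked on simulated counts. With ironomycin alone, edgeR found 80 and DESeq2 78 of 100 genes given a log2 change of 2. In the same comparison edgeR called 12 unchanged genes and DESeq2 25. For the ironomycin effect in JVM2 they called 12 and 48 unchanged genes, and for its difference between lines 5 and 85.

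The members and lists were chosen with earlier results of these data known. Values in every library are given for 32 members. These are the members called in any of the 11 comparisons (the 10 with the largest change where over 10 were called), the highest and lowest of each role with both drugs against control, and 6 paralog pairs. Tables were handled with Python 3.11.15 and pandas 2.3.3. One GPI anchor gene was not matched in the table, and the lists of early N-glycan genes and B-cell markers leave out a gene each that is not reported here. Alternatives were other scalings, no low-count filter, a fold minimum, no line block, each line left out, and the libraries of 2 treatments alone.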

Additional observations from a re-analysis of the deposited data

Results flagged for a closer look

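The ironomycin effect of 10 members differed between the cell lines in a test of the difference itself (edgeR, 2 coefficients). The adjusted p was 0.008996 for GFPT1, 0.0172 for GMPPA, 0.0335 for ALG1, 0.0168 for ALG2, 0.0499974 for ALG8, 0.00824 for STT3A, 0.04602 for RPN1, 0.0307 for UGGT1, 0.00359 for MAN1A1 and 0.0282 for MAN1A2. In 9.38% of all genes the effect also differed. GMPPA changed by 0.79 ± 0.08 in JEKO1, 0.22 ± 0.08 in JVM2 and 0.73 ± 0.08 in MAVER1. ALG2 changed by 0.85 ± 0.10, 0.11 ± 0.10 and 0.69 ± 0.10 in the same order of lines, and RPN1 by 0.60 ± 0.08, 0.08 ± 0.08 and 0.33 ± 0.08. UGGT1 changed by 0.58 ± 0.09, 0.08 ± 0.09 and 0.62 ± 0.09, and MAN1A2 by 0.45 ± 0.11, 0.02 ± 0.11 and 0.79 ± 0.11. ALG8 changed by -0.32 ± 0.08, -0.20 ± 0.08 and -0.65 ± 0.08. The ironomycin dose was the same in JVM2 and MAVER1 and lower in JEKO1. JVM2 alone was kept in less serum, so line and culture cannot be told apart for JVM2.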

How the results depend on the processing

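No named member that was called changed its direction under any of the alternatives. Against control, both drugs gave 15 called members, and the count was 1 with a log2 fold change of at least 1 required, 0 with only the libraries of the 2 treatments and 0 to 19 with a line left out. Adding ironomycin to ibrutinib gave 16, and 1, 0 and 0 to 21 in the same order. Ironomycin alone gave 1, and 2 with library totals, 4 with no filter on low counts, 10 with DESeq2, 0 with the fold minimum, 0 with only the libraries of the 2 treatments and 0 to 9 with a line left out. The JEKO1 count of 24 and the MAVER1 count of 25 fell to 2 and 3 with the fold minimum. With that minimum, 1372 and 1186 of all 18674 genes were called in these lines, and 133 in JVM2. It left 1175 of all genes with both drugs against control, 870 with both against ibrutinib and 40 with ironomycin alone. The JVM2 count of 2 became 0 with the fold minimum, 0 with DESeq2 size factors, 4 with DESeq2 and 0 to 3 with a line left out. The line difference of the ironomycin effect gave 10, and 2 to 9 with a line left out. The shares of all genes called with DESeq2, with other scalings or with a line left out were not counted. The cause of these moves was not tested. The median change of the members moved beyond the spread between lines with library totals, to 0.22 for ironomycin and 0.22 for both drugs. It moved likewise to 0.06 for ironomycin without JVM2. With library totals the median ironomycin effect moved to 0.33 in JEKO1 and 0.11 in JVM2. Those moves were beyond the spread between that line's ironomycin changes with and without ibrutinib. With library totals the median of all genes moved up as well. It moved by 0.068 for ironomycin, 0.125 for both drugs, 0.138 for the JEKO1 effect and 0.057 for the JVM2 effect.

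Without the line as a replicate block, 0 members were called with both drugs against control, 0 with both against ibrutinib and 0 with ironomycin alone. Such a fit counts the differences in level between lines as spread. With 3 lines as replicates and 1 library per line and treatment, a small change could be missed where it differed between lines. Small changes were still called in the main fit. Of the 15 members called with both drugs against control, 1 reached a log2 fold change of 1.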
